A study of Mus musculus with 35 samples.

Results

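The wide H3K27Ac domains of the P14 retina were peaks of the wild-type P14 replicate 2 list that measured at least 4000 bp from start to end and overlapped a P14 replicate 1 peak. They numbered 607 of the 50005 peaks in that list, and of the 13653 peaks that overlapped replicate 1 by at least 1 bp. They were chosen by their P14 H3K27Ac width, so P14 H3K27Ac is given as a description, without a test. The other stages, the other histone marks and Brg1 were not used in the choice.

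The series examined chromatin in the developing mouse retina and in retinae that lack the chromatin remodeller Brg1. H3K27Ac, H3K4me3 and H3K27me3 were measured by ChIP-Seq, in which DNA bound to an antibody target is sequenced and enriched intervals are called as peaks. Wild-type retinae were taken at postnatal day 0 (P0), P14 and P21, with 2 libraries for each mark and stage. At P12 there were 2 H3K27Ac libraries and 1 library each of H3K4me3 and H3K27me3 from retinae whose genotype label reads BRG1 -/-, beside wild-type retinae with 1 H3K27Ac library, 1 H3K4me3 library and 2 H3K27me3 libraries. Those retinae are called Brg1-deficient, as in the study, whose methods use Chx10-Cre;Brg1 Lox/Lox mice. Chx10-Cre acts in retinal progenitor cells with mosaic expression, so a Brg1-deficient retina can hold cells that kept Brg1. Brg1 itself was measured at P0 in 1 anti-FLAG library from Brg1-FLAG knock-in mice. The antibody label of H3K27me3 is AB3 at P12 and AB1 at the other stages. No label states that replicates came from separate animals, although the paper describes its histone-mark duplicates as biological. The p-values measure the spread between these libraries, which can include technical spread.

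H3K27Ac, acetylation of lysine 27 on histone H3, marks active promoters and enhancers, and unusually long acetylated stretches are known from genes that are highly active in a cell type. H3K4me3 marks promoters of active or poised genes, and H3K27me3 is the repressive mark laid down by Polycomb. Brg1 is the motor of SWI/SNF (BAF) remodelling complexes, which move nucleosomes with energy from ATP. Between P0 and P21 the mouse retina completes the production of rods, bipolar cells and Müller glia, and its photoreceptors mature. Whole retinae were measured, so a mark in more cells and a stronger mark in each cell cannot be told apart.

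The peak lists differed in size. For H3K27Ac they held 17588 and 29304 peaks at P0, 17433 and 50005 at P14, 18718 and 45833 at P21, 47404 in wild-type P12 and 40465 and 42887 in Brg1-deficient P12 retinae. Sequencing depth is unknown, and the size of a list moved with the width of its peaks at the domains in each replicate pair at P0, P14 and P21. Positions are on the mm9 build that the submitters named. The reference tables at hand are of another build, so domains are given by position and no gene is assigned to them. The tissue label was therefore not checked against marker genes here.

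The domains ranged from 4000 to 17086 bp, with a median of 5062 bp. The median of the peaks that overlapped replicate 1 was 1363 bp. Of the 607 domains, 291 were shorter than 5000 bp and 20 reached 10000 bp. Together they covered 3.44 Mb, which was 8.58% of the length covered by the replicate 2 list although they made up 1.21% of its peaks. Height is the fold enrichment over background that the authors' peak caller gave each peak. The domains had a median height of 17.8-fold in replicate 2, against 12.2-fold over all peaks that overlapped replicate 1.

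At the width limit the choice was arbitrary to within a few bases. Just inside lay chr13:23828675-23832674 and chr5:116134690-116138689, both of 4000 bp, and chr2:151802731-151806732 of 4002 bp. Just outside lay chr15:81640118-81644115 of 3998 bp, chr7:26428937-26432929 of 3993 bp and chr10:17441309-17445298 of 3990 bp. At P21 the widest peak at these 6 places ranged from 440 to 6430 bp in replicate 1, and the largest of these values belonged to chr10:17441309-17445298, a peak just outside the limit.

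The domains were not spread evenly. Chromosome 11 held 65 of them, chromosome 7 held 60 and chromosome 9 held 57, whereas chromosome X held 3. As a share of the replicated P14 peaks of each chromosome this was 5.55%, 6.23%, 6.71% and 1.18%. A further domain lay within 50000 bp of 242 domains (39.9%), and such neighbours formed 100 runs, of which 29 had 3 or more domains. The run of 5 domains at chr4:148177237-148295280 spanned 118044 bp and held 34000 bp of domain. A more compact run at chr10:80850010-80890463 packed 4 domains with 30327 bp into 40454 bp. Members of a run share their surroundings and are not independent of each other.

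In P14 replicate 1, whose list was the smaller at 17433 peaks, 114 of the 607 domains also held a peak of at least 4000 bp. The median of the widest replicate 1 peak was 2592 bp, and replicate 1 peaks covered a median of 69.5% of a domain. A width of 4000 bp thus depended on the library. Coverage, the share of a domain's bases inside peaks of a library, is given below beside the width.

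At P0 the same places carried short peaks or none. The median widest H3K27Ac peak was 290 bp in P0 replicate 1 and 699 bp in P0 replicate 2. No domain reached 4000 bp in replicate 1, and 23 did so in replicate 2. Median coverage was 5.16% and 19.9%. By P12 every domain held a wild-type H3K27Ac peak, as did 98.8% of all replicated P14 peaks. At the domains the median widest peak was then 4031 bp and the median coverage 94.3%. At P21 the median widest peak was 3626 bp in replicate 1 and 4156 bp in replicate 2, with median coverages of 82.0% and 94.4%. The 2 P0 libraries therefore lay below all later libraries on both measures.

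**Figure D1:**
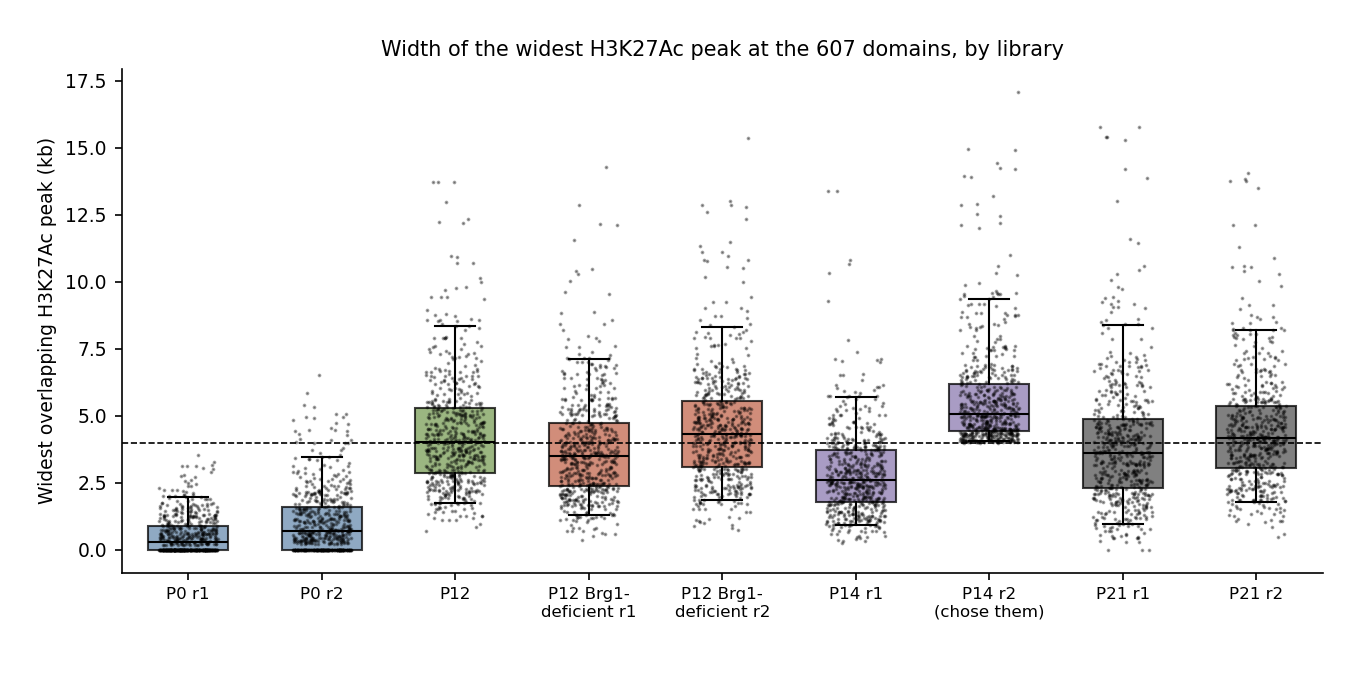
Width in kb of the widest H3K27Ac peak at each of the 607 domains in the 9 H3K27Ac libraries. Points are domains, boxes span the quartiles with the median as a line, whiskers run from the 5th to the 95th percentile, a domain without a peak is at 0 and the dashed line is the 4000 bp limit. The P0 medians are 290 and 699 bp, and the medians of the other libraries lie between 2592 and 5062 bp.

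At P21, 258 domains kept a peak of at least 4000 bp in replicate 1 and 332 did so in replicate 2. In both replicates the number was 203 (33.4%). The count rested on how neighbouring peaks were divided. When peaks within 500 bp were joined, 393 and 541 domains reached the limit, and when the summed covered length inside a domain was used, 325 reached it in both replicates. Without P21 replicate 1, the smaller list, the count was 332.

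Covered length was compared between P0 and P21, stages that took no part in the choice. In 526 domains (86.7%) both P21 libraries had a longer covered length than both P0 libraries, and 43.7% of all replicated P14 peaks met the same condition. Only 2 domains had both P21 libraries below both P0 libraries, against 3.18% of all peaks. Because P14 lies next to P21, a gain from P0 is built into peaks found at P14, and this holds for the comparison group as well. Only the domains were also chosen by P14 width, so the groups are not alike in their choice. Median P0 coverage was 31.1% and 57.7% over all replicated P14 peaks, against 5.16% and 19.9% at the domains, which left the domains more room to gain. The part of the choice in the difference was not tested.

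The 2 exceptions, named after their values were seen, were broad at P0 and less covered at P21. At chr10:36855771-36861383 H3K27Ac covered 89.2% and 90.3% of the domain at P0, 79.4% in wild-type P12, 47.4% in P14 replicate 1 and 19.1% and 85.5% at P21. At chr5:124800901-124804981 it covered 94.3% and 98.7% at P0, 80.1% at P12, 31.7% in P14 replicate 1 and 37.1% and 74.1% at P21. P14 replicate 2, which chose them, covered 100% of each by definition. The other later wild-type libraries lay below both P0 libraries, at chr10:36855771-36861383 narrowly so in P21 replicate 2, and P21 replicate 1 was much lower than P21 replicate 2.

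For a comparison across the genome, peaks of the 6 wild-type P0, P14 and P21 libraries were merged into regions and fitted with limma on a log2 scale, with Benjamini-Hochberg adjustment. Of 6394 regions with peaks in all 6 libraries, 336 held a domain. Covered length was higher at P21 than at P0 in 188 of these (56.0%) at an adjusted p below 0.05 by limma, against 9.24% of the 6394, and lower in 2 (0.595%), against 1.36%. The median difference was 1.27 (log2 of covered bp plus the pseudocount) at the domains and -0.05 over all such regions. Height was higher at P21 in 64 of the 336 (19.0%), against 2.99%, and lower in 1 (0.298%), against 0.673%, with medians of 0.61 and 0.01. All these regions had P14 peaks, which the choice of the domains also required. The domains were further chosen by P14 width, a measure close to covered length, and the other regions were not. The P14 libraries also entered the shared estimate of the spread. The part of the choice in these shares was not tested.

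The planned fit took in every region with a peak in at least 2 libraries, 33340 in all, of which 598 held a domain. Regions without a P0 peak enter it only through the later stages, where they are high, so its counts are given as a description and nothing is read from them. Covered length was higher at P21 in 282 of the 598, against 8.88% of all regions, and lower in 0, against 2.93%. Of the 282, 150 had no P0 peak, 63 had one in 1 P0 library and 69 in both. Without P0 replicate 1, P0 replicate 2 or P21 replicate 1 no region passed by limma, and 47.8%, 60.9% and 54.3% of domain regions then had an unadjusted p below 0.05, against 12.4%, 13.2% and 18.3% of all regions. Without P21 replicate 2, 255 were higher and 2 lower.

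For height in the same 33340 regions, 150 of the 598 were higher at P21, against 7.94% of all regions, and 0 were lower, against 2.46%. Of the 150, 139 had no peak in either P0 library, 8 had a peak in 1 of them and 3 in both. The unadjusted p was below 0.05 in 297 of the 598 (49.7%), against 25.9% of all regions. The smallest adjusted p among the domain regions was 0.0477 by limma, close to the limit. Without scaling between libraries, or without P0 replicate 1, P0 replicate 2 or P21 replicate 1 no region passed by limma, and 45.2%, 26.6%, 43.0% and 33.4% of domain regions then had an unadjusted p below 0.05, against 20.4%, 9.89%, 11.9% and 27.01% of all regions.

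The 5 regions with the lowest adjusted p for height had no P0 peak in either library. They entered this fit only through the later libraries, where they were high, so nothing is read from their rank. At chr11:63701350-63709911 the scaled height was 15.4 and 13.97 at P14 and 25.4 and 17.5 at P21. At chr4:148716789-148723442 it was 11.3 and 8.53 at P14 and 24.8 and 18.1 at P21. The other three were chr7:132970522-132976975, chr12:87842511-87848788 and chr4:53485169-53492821, with P21 heights between 16.4 and 21.9. No fold is given for these, since P0 is listed without a peak. For covered length the 5 with the lowest adjusted p were chr11:115689879-115698656, chr15:66945023-66954133, chr4:117539910-117547545, chr9:43561607-43568825 and chr11:4888641-4897530. Each had no P0 peak and likewise entered only through the later libraries.

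Fewer regions had a P0 value to compare with. Chosen after its values were seen, chr10:61757866-61768670 had a scaled height of 4.23 and 3.76 at P0, 12.1 and 12.3 at P14 and 19.8 and 20.04 at P21. The P21 libraries stood above the P0 libraries by 1.84 ± 0.38 (SE, log2 of height plus 2.19, adjusted p = 0.0478 by limma). Its peaks covered 231 and 312 bp of its 10805 bp at P0, 8005 and 10616 bp at P14 and 10005 and 10660 bp at P21, as deposited. After scaling between libraries, which can carry a value past the length of the region, the difference from P0 to P21 was 4.43 ± 0.46 (SE, log2 of covered bp plus 174.51, adjusted p = 0.0127 by limma). P0 did not overlap P21 on either measure.

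The P0 state divided the domains. H3K27Ac peaks were present in both P0 replicates at 337 domains (55.5%), in 1 replicate at 110 and in neither at 160 (26.4%). Of all replicated P14 peaks, 60.4% had P0 H3K27Ac in both replicates and 31.8% in neither. A longer interval meets more peaks by its length alone, so the P14 summit, the single highest base of each peak, was also used. The summit lay inside a P0 peak at 48.4% and 63.1% of domains in P0 replicates 1 and 2, and at 58.5% and 65.8% of all peaks. Taking the 17433 strongest peaks of every H3K27Ac library gave 326 domains acetylated in both P0 replicates. Where at least 50% of the domain had to be covered in both, 48 remained.

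Brg1 at P0 was found at 532 of the 607 domains (87.6%), at 80.5% of the replicated P14 peaks within 1000 bp below the width limit and at 70.5% of all of them. The summit lay inside a Brg1 peak at 71.0% of domains and 59.0% of all peaks. By coverage there was no such excess. Brg1 covered a median of 50.8% of a domain and 53.6% of a replicated P14 peak, and it covered at least 50% of the interval at 50.4% of domains and 52.4% of all peaks. Brg1 commonly formed several peaks within a domain, with 1 peak at 145 domains, 2 at 166 and 3 or more at 221. The median Brg1 peak measured 864 bp inside the domains and 519 bp elsewhere. Of the 456 Brg1 peaks of at least 4000 bp in the list, some overlapped 98 of the domains. Only 1 library was available, so these values have no replicate check.

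H3K27Ac and Brg1 at P0 went together. Of the 337 domains acetylated in both P0 replicates, 336 had a Brg1 peak, and the exception was 1 domain. Of the 160 without P0 acetylation, 95 had Brg1 and 65 did not. Over all replicated P14 peaks, 7685 of 8245 acetylated peaks and 1094 of 4335 unacetylated peaks had Brg1. In both sets Brg1 was more frequent where H3K27Ac was already present.

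The same order held for single bases within the domains. Bases acetylated in both P0 replicates made up 13.7% of domain length, and Brg1 peaks covered 93.3% of them. Bases without acetylation in either P0 library made up 72.9%, and Brg1 covered 35.6%. The base counts describe these libraries and are not independent observations. H3K4me3 in both P0 replicates covered 83.0% of the acetylated bases and 11.2% of the unacetylated ones.

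**Figure D2:**
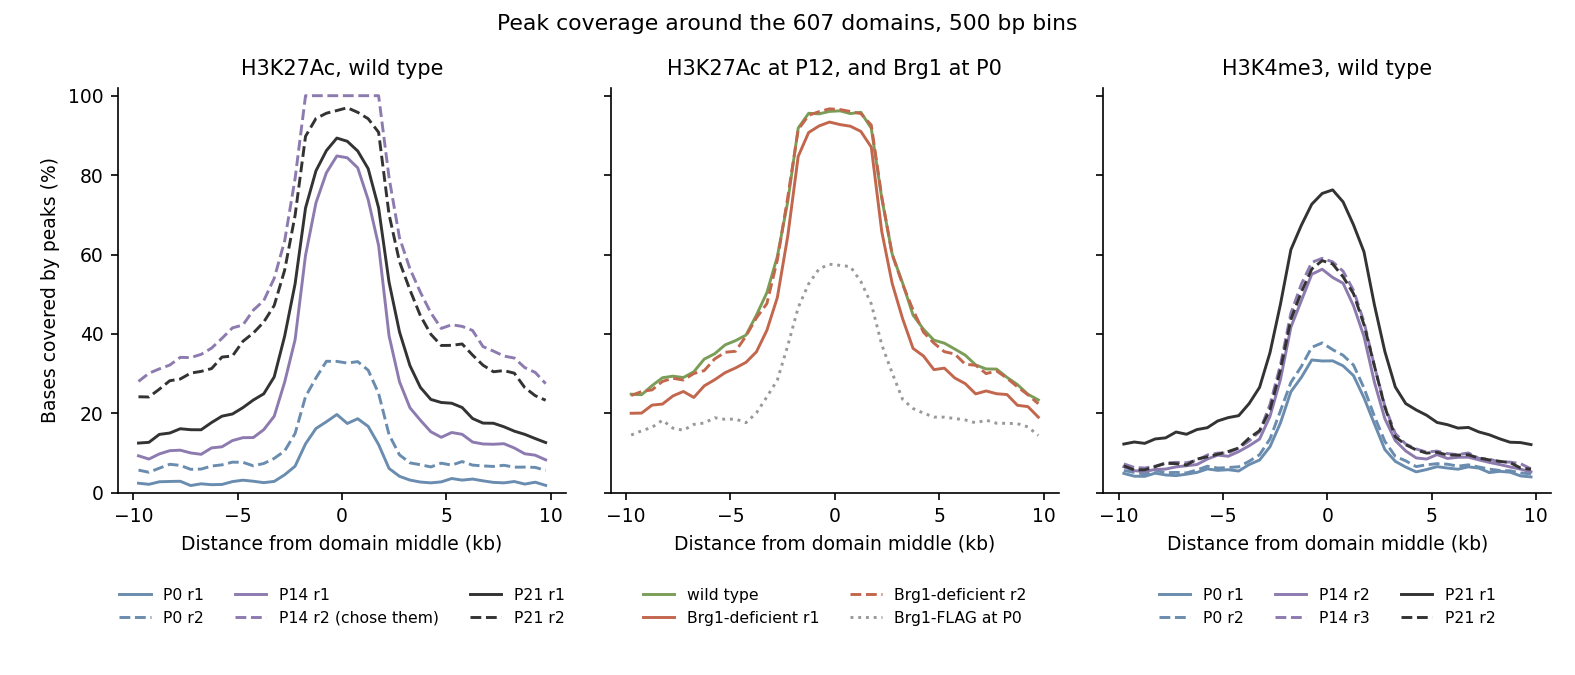
Share of bases inside peaks in 500 bp bins up to 10 kb on either side of the middle of the 607 domains. Lines are libraries: wild-type H3K27Ac on the left, P12 H3K27Ac of both genotypes with P0 Brg1 in the middle and wild-type H3K4me3 on the right. In the bin just left of the middle H3K27Ac covers 19.7% and 33.1% of bases at P0 and 89.3% and 96.3% at P21, and P0 Brg1 covers 57.6%.

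The domains without P0 acetylation were not a uniform group. Of the 160, 58 also lacked Brg1, H3K4me3 and H3K27me3 peaks at P0, 64 had Brg1 as the only one of these and 17 had H3K27me3 in both P0 replicates. Their median coverage reached 94.9% in wild-type P12 and 86.5% and 94.8% in the P21 libraries. For domains acetylated in both P0 replicates the values were 93.8% and 78.9% and 94.3%. The groups thus had like coverage once acetylated, with the second P21 library higher than the first in each.

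The widest without P0 acetylation was chr17:47058916-47072113 of 13198 bp, which ranked ninth by width. It had no H3K27Ac or H3K4me3 peak in either P0 library and Brg1 covered 2.71% of it. H3K27Ac covered 98.0% of it in wild-type P12, 84.9% in P14 replicate 1 and 93.4% and 99.0% at P21. H3K4me3 covered 10.9% in wild-type P12, 5.49% and 3.64% at P14 and 32.3% and 8.68% at P21. H3K4me3 thus covered less than H3K27Ac in all these libraries.

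In contrast, chr6:115876878-115889072 of 12195 bp gained both marks. It too had no H3K27Ac or H3K4me3 peak at P0. H3K27Ac covered 98.3% of it in wild-type P12, 90.1% in P14 replicate 1 and 97.7% and 90.8% at P21. H3K4me3 covered 84.0% in wild-type P12, 81.1% and 79.5% at P14 and 96.7% and 78.9% at P21. The domain chr11:67508279-67518870 of 10592 bp had neither Brg1 nor H3K27Ac at P0 and carried H3K27Ac over 95% of its length in wild-type P12 and 98.7% and 94.9% at P21. The others among the 10 widest without P0 acetylation, apart from 1 whose position is not given here, were chr1:39499234-39508760, chr19:42078246-42087615, chr13:49339506-49348686, chr1:13188853-13197688, chr11:115689879-115698656 and chr6:31535878-31544319. The last of these had no H3K4me3 peak at P0, P12 or P14 and 8.35% coverage in P21 replicate 1.

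The 10 widest domains began from different P0 states. The widest, chr6:30115174-30132259 of 17086 bp, had H3K27Ac over 9.56% and 16.8% of its length at P0, H3K4me3 over 53.7% and 56.8%, and H3K27me3 over 91.7% and 99.8%. H3K27Ac then covered 96.5% in wild-type P12 and 89.5% and 95.2% at P21. H3K27me3 fell short of its P0 values in all later libraries, with 57.4% and 53.9% at P12, 0% and 66.7% at P14 and 0% and 49.2% at P21, and the 2 replicates of P14 and of P21 disagreed on its presence.

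The domains ranked next, chr9:106349381-106364349 of 14969 bp and chr3:89185619-89200546 of 14928 bp, had no H3K27me3 island in any library. At the first of them H3K27Ac coverage rose from 21.3% and 43.1% at P0 to 81.4% and 95.6% at P21. At chr5:115876655-115890870 of 14216 bp much of the domain was already marked at P0, with H3K27Ac over 48.1% and 81.2% and H3K4me3 over 78.4% and 89.3%. The other wide ones were chr3:87942077-87956514 of 14438 bp, chr11:71938937-71953170 of 14234 bp, chr10:77767740-77781698 of 13959 bp, chr4:154379877-154393797 of 13921 bp and chr10:80868184-80881077 of 12894 bp. At the last of these Brg1 covered 99.5% of the domain at P0 while H3K27Ac covered 8.17% and 28.5%.

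**Figure D3:**
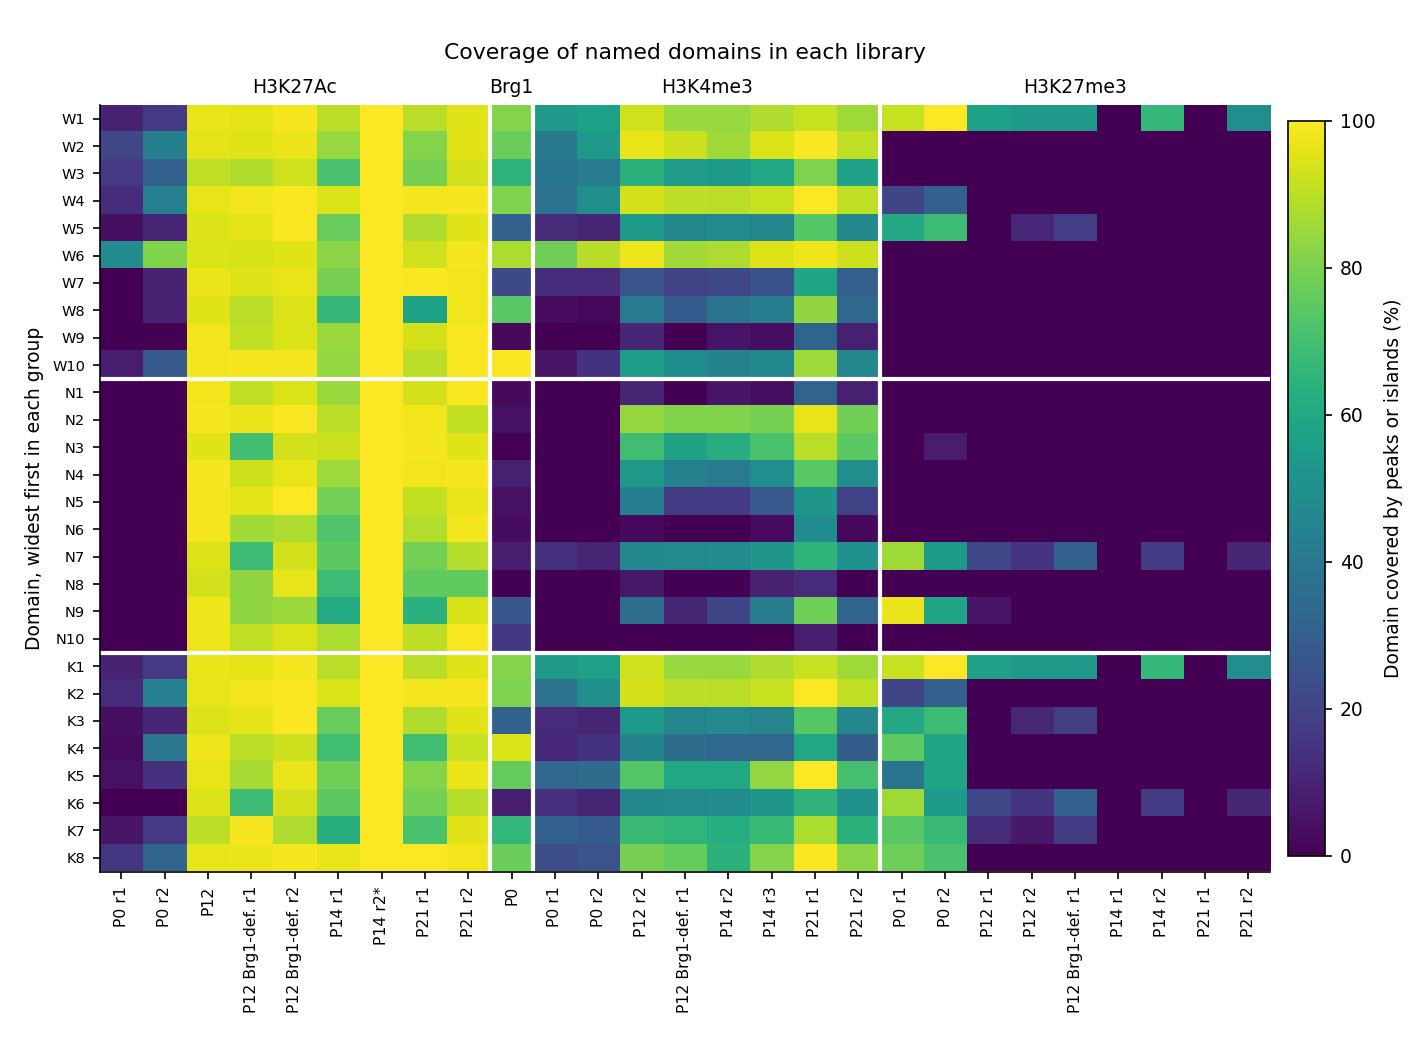
Share of each named domain covered by peaks or islands in all 27 libraries, from 0% (dark) to 100% (light). Rows are the 10 widest domains (W), the 10 widest without P0 H3K27Ac (N) and the 8 widest with P0 H3K27me3 in both replicates (K), with the widest first and some domains in 2 groups. The asterisk marks the library that chose the domains, def. stands for deficient, and the H3K27Ac columns are darkest at P0.

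H3K4me3 also widened over the domains. A peak lay in 352 and 364 domains at P0 (58.0% and 60.0%), 485 and 502 at P14 (79.9% and 82.7%) and 587 and 492 at P21 (96.7% and 81.1%). Over all replicated P14 peaks the shares were 65.0% and 66.0% at P0, 70.7% and 71.6% at P14 and 80.2% and 71.1% at P21. Longer intervals meet more peaks by their length alone. The median coverage of a domain was 14.7% and 19.6% at P0, 48.4% and 52.9% at P14 and 75.6% and 50.9% at P21. Both P14 libraries had a longer covered length than both P0 libraries at 369 domains (60.8%), against 15.2% of all replicated P14 peaks, and 40 went the other way (6.59%, against 7.27%). For P21 the numbers were 403 domains (66.4%, against 18.3%) and 11 (1.81%, against 1.73%). A peak that H3K4me3 already covered at P0 cannot gain, and the median coverage of all peaks at P0 was 85.7% and 90.7%.

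Within the domains H3K4me3 was kept where it lay at P0 and was also found at other bases at P14. Of the bases with H3K4me3 in both P0 replicates, 95.3% had it in both P14 replicates. Of the bases without it, 25.6% did. Of the 240 domains with no H3K4me3 in either P0 replicate, 128 and 142 had a peak at P14 and 220 and 137 at P21. The like counts over all replicated P14 peaks without P0 H3K4me3 were not made, so nothing particular to the domains is read from these.

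Peak height of H3K4me3 was compared by limma in the same way. Of 15065 regions with H3K4me3 peaks in all 6 libraries, 355 overlapped a domain. At P14, 41 of these (11.5%) were higher than at P0, against 1.21% of all such regions, and 0 were lower, against 2.77%. At P21, 47 (13.2%) were higher, against 1.46%, and 0 were lower, against 8.42%. The unadjusted p was below 0.05 in either direction in 20.8% and 21.4% of the 355 by limma, against 15.8% and 21.3% of all. The median difference (log2 of height plus the pseudocount) was 0.24 and 0.28 at the domains and 0.00 and -0.04 over all such regions.

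The planned fit over 21075 regions with a peak in at least 2 libraries held 616 that overlapped a domain. At P14, 167 of the 616 were higher, against 3.79% of all regions, and 4 were lower, against 12%. At P21, 209 were higher, against 5.05%, and 2 were lower, against 15.5%. Of the regions called higher, 125 of 167 and 157 of 209 had no H3K4me3 peak in either P0 library and entered only through the later libraries, so nothing is read from these counts.

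These counts also depended on the libraries and on scaling. Without P14 replicate 2 or 3 no region passed at P14 by limma, and 37.7% and 36.4% of domain regions had an unadjusted p below 0.05, against 24.2% and 24.95% of all regions. Without P0 replicate 1 or 2 the count at P14 was 66 and 65. For P21 the count without any 1 library lay between 137 and 168, and it was 137 without P0 replicate 1. Without scaling no region passed in either comparison by limma, and 25.2% and 35.9% of domain regions had an unadjusted p below 0.05, against 19.1% and 22.6% of all regions. The unscaled median over all regions at P14 was -0.25.

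In the planned fit the regions with the lowest adjusted p for H3K4me3 were shared between the stages, which have the P0 libraries in common. At chr11:67508240-67517790 no P0 library had a peak, and the scaled height was 51.1 and 47.4 at P14 and 46.3 and 37.7 at P21. At chr8:13403316-13413347 it was 34.4 and 37.2 at P14 and 44.9 and 45.0 at P21, again from none at P0. Both entered the fit only through the later libraries, so nothing is read from their rank. The same 5 regions led both comparisons, and the others were chr11:3617428-3626228, chr19:4135769-4142737 and chr5:108815475-108827998. With peaks at every stage and chosen after its values were seen, chr1:193800362-193807779 had heights of 3.77 and 2.98 at P0, 42.5 and 31.2 at P14 and 38.7 and 35.9 at P21, a difference of 2.56 ± 0.23 at P14 (SE, log2 of height plus 3.41, adjusted p = 0.00799 by limma).

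Few regions lost H3K4me3. At chr4:118785796-118788869 the scaled height was 4.29 and 5.43 at P0, and no P14 or P21 library had a peak. At chr13:44323760-44324333 it was 3.27 and 4.04 at P0 with none later. Both were weak at P0, entered the fit only through P0, and were called lower at P14 and P21. The other 2 calls at P14 were chr12:111944612-111946552 and chr4:148177286-148185343. At the second of these the heights were 65.8 and 60.0 at P0, 31.8 and 36.5 at P14 and 54.6 and 60.9 at P21, so that P14 alone was low.

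H3K27me3 islands, broad intervals called with a method for diffuse marks, lay in 91 and 116 domains at P0. Islands were present in both P0 replicates at 83 domains (13.7%), at 12.9% of the replicated P14 peaks within 1000 bp below the width limit and at 7.54% of all of them. At P12 they lay in 35 and 37 domains, at P14 in 9 and 18 and at P21 in 6 and 13. The summit lay inside an island at 11.2% and 14.2% of domains at P0 and at 0.494% and 1.81% at P21. For all peaks the values were 6.97% and 8.79% at P0 and 3.32% and 4.23% at P21. For the peaks within 1000 bp below the limit they were 11.2% and 12.2% at P0 and 1.04% and 1.64% at P21. The domains stood above all replicated P14 peaks at P0 and below them at P21 in both replicates. The peaks just below the limit did so too, so this was not particular to the domains.

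**Figure D4:**
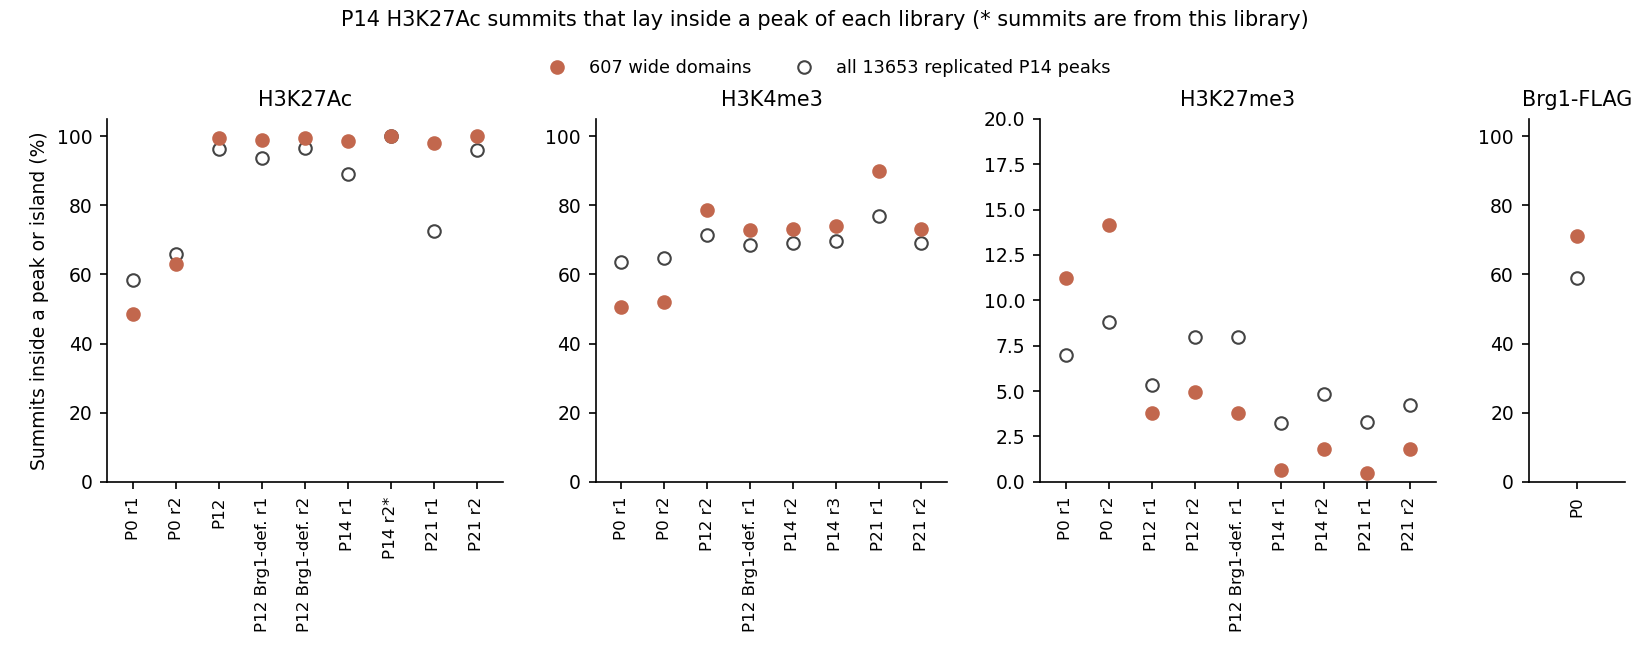
Share of P14 H3K27Ac summits that lay inside a peak or island of each library, for the 607 domains (filled) and all 13653 replicated P14 peaks (open). Panels are H3K27Ac, H3K4me3, H3K27me3 (axis to 20%) and P0 Brg1, columns are libraries, def. stands for deficient and the asterisk marks the library that gave the summits. For H3K27me3 the filled points lie above the open ones at P0, with 11.2% and 14.2%, and below them in the later libraries.

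Covered length of H3K27me3 was lower in both P21 libraries than in both P0 libraries at 80 domains (13.2%), against 5.67% of all peaks, and higher at 0 domains, against 1.42%. Of the 83 domains with P0 islands in both replicates, 51 had none in either wild-type P12 library and 72 had none in either P21 library. The like counts over all replicated P14 peaks with P0 islands were not made. Whether this loss was particular to the domains is therefore not known. At P12 another antibody was used by its label. At P14 the island lists were uneven, since replicate 2 had 0 islands on chromosome X and 281 on chromosome 14, and chromosomes 1 to 4 held 46.1% of the islands of replicate 1 and 24.4% of those of replicate 2. The part of either in the P12 and P14 values was not tested.

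Active marks were also found at these domains at P0. Of the 83, 70 (84.3%) had H3K4me3 in both P0 replicates, 79 (95.2%) had Brg1, and 52 (62.7%) had H3K27Ac peaks in both P0 replicates. Of the 1030 replicated P14 peaks with P0 H3K27me3 in both replicates, 81.7%, 84.7% and 62.7% did, so the H3K27Ac share was alike. Whether the marks lay in the same cells cannot be told apart in whole retinae. At chr10:80296008-80308132 of 12125 bp H3K27me3 covered 75.3% and 58.8% at P0 and no base later, while H3K27Ac coverage went from 3.39% and 39.5% to 69.2% and 91.7% at P21. At chr14:65197841-65206929 H3K27me3 covered 78% and 71.4% at P0 and no base later, and H3K27Ac coverage went from 16.0% and 32.6% to 100% and 97.7%. Among the other wide members of this group, chr1:138027853-138037447 lost its islands by P12 and chr7:25786864-25796009 by P14.

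At P12 the width of the domains in Brg1-deficient retinae was set beside that in wild-type retinae. Cells that kept Brg1 under the mosaic Chx10-Cre can add peaks. To limit such cells, the authors favoured animals whose eyes were undersized, since Cre was more widely expressed in them. Most cells in which Cre had acted were without Brg1 protein at P12, by the paper's staining. The share of cells that kept Brg1 is not given for these libraries. Whether wide acetylation formed in cells without Brg1 therefore could not be told. Every one of the 607 domains held an H3K27Ac peak in the wild-type and in both Brg1-deficient libraries. Of all replicated P14 peaks, 98.8% held one in wild type, and 96.8% and 98.4% in Brg1-deficient replicates 1 and 2. A peak of at least 4000 bp was present at 310 domains in wild-type retinae and at 232 and 344 in Brg1-deficient replicates 1 and 2, so that the wild-type count lay between the replicates. The median widest peak was 4031 bp in wild-type and 3512 and 4308 bp in Brg1-deficient retinae. With 1 wild-type library, no test between genotypes was made.

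All 3 libraries reached 4000 bp at 168 domains, and 180 reached it in none of them. The wild-type library alone did so at 51 domains, and both Brg1-deficient libraries without the wild-type library did so at 32. Between the 2 Brg1-deficient replicates, 32 domains were wide in replicate 1 and not replicate 2, and 144 the other way. When peaks within 500 bp were joined, 571 domains reached the limit in wild-type and 509 and 570 in Brg1-deficient retinae.

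Coverage of the domains was similar across the genotypes. The median was 94.3% in wild-type and 90.7% and 95.01% in Brg1-deficient retinae. The ratio of Brg1-deficient to wild-type covered length had a median of 0.972 in replicate 1 and 1.004 in replicate 2, and the ratio of replicate 1 to replicate 2 was 0.960. Brg1-deficient coverage was at most 50% of the wild-type length in both replicates at 0 domains, against 1.39% of all peaks with a wild-type P12 peak, and at least double at 0, against 0.697%. The second of these cannot occur where the wild-type library covers most of a domain. Both Brg1-deficient libraries were below wild type at 224 domains (36.9%, against 25.2%) and both above it at 142 (23.4%, against 38.6%). At the replicated P14 peaks within 1000 bp below the width limit these shares were 33.2% and 27.2%. Those peaks thus lay nearer to the domains than to all peaks.

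Heights at P12 differed little. For this comparison heights were scaled to equal medians over the replicated P14 peaks with a peak in the wild-type and both Brg1-deficient libraries. At the domains the median difference in log2 of scaled height was -0.15 and -0.14 for Brg1-deficient replicates 1 and 2 against wild type. The SDs over domains were 0.49 and 0.49. Over all such peaks the median difference was -0.04 and -0.03, which the scaling holds near 0. At those within 1000 bp below the width limit it was -0.14 and -0.08, so a lower median was not particular to the domains. Between the 2 Brg1-deficient replicates at the domains the median difference was -0.03. After scaling, the difference at the domains had the same sign in both replicates. The deposited heights, unscaled, had domain medians of 14.25 in wild type and 14.19 and 15.15 in Brg1-deficient replicates 1 and 2. By those medians replicate 2 was not below wild type.

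**Figure D5:**
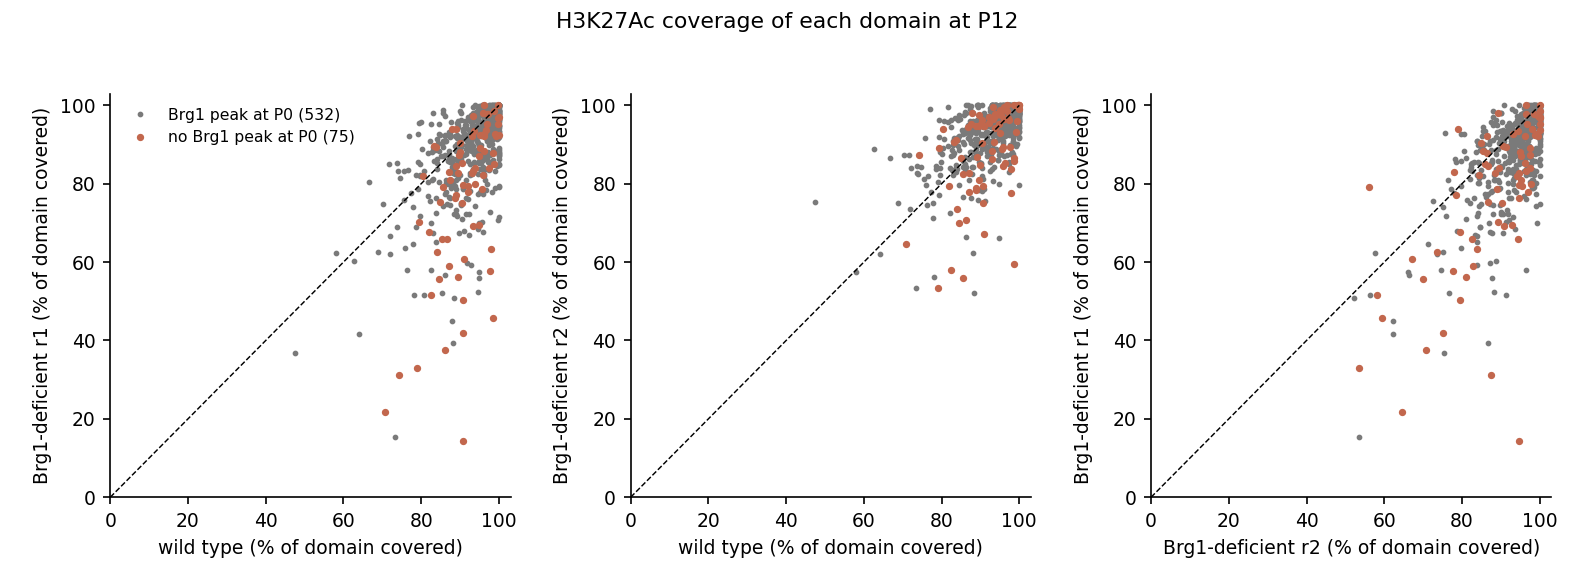
Share of each domain covered by H3K27Ac peaks at P12, for wild type against Brg1-deficient replicates 1 and 2 and for the 2 Brg1-deficient replicates against each other. Points are the 532 domains with a P0 Brg1 peak and the 75 without, and the dashed line marks equal values. Most replicate 1 values lie below the line, with medians of 90.7% against 94.3% and 95.01%.

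Ratios were lower where Brg1 had not been detected at P0. The median ratio to wild type was 0.896 and 0.996 at the 75 domains without a P0 Brg1 peak and 0.978 and 1.01 at the 532 with one, and both Brg1-deficient libraries were below wild type at 35 (46.7%) and 189 (35.5%). It was 0.925 and 0.990 at domains without P0 H3K27Ac and 0.988 and 1.01 at those acetylated in both P0 replicates. By single bases, of the domain bases acetylated in wild-type P12, Brg1-deficient replicates 1 and 2 kept 95.7% and 97.9% where Brg1 lay at P0 and 86.5% and 93.5% where it did not. The same order was seen in other wild-type libraries, with 81.4% and 79.0% in P21 replicate 1, 95.7% and 91.6% in P21 replicate 2, and 78.6% and 65.6% in P14 replicate 1, which the choice of domains used. The part of the genotype in these values was not tested.

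The 5 domains with the lowest ratio of mean Brg1-deficient to wild-type coverage were chr2:166219886-166225654, chr9:105372110-105376223, chr14:64316956-64321931, chr14:35472496-35477951 and chr9:64797645-64801651, with ratios from 0.47 to 0.6. At the first of them H3K27Ac covered 73.3% in wild-type and 15.5% and 53.4% in Brg1-deficient retinae. At chr9:64797645-64801651 the values were 90.9% against 14.4% and 94.6%, so that replicate 1 alone was low. Of the 5, 4 had no H3K27Ac peak in either P0 library and 3 had no P0 Brg1 peak.

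The domain chr9:105372110-105376223 of 4114 bp stood out in H3K4me3 as well. It had no H3K27Ac, H3K4me3 or Brg1 peak at P0. H3K4me3 covered 95.1% of it in wild-type P12, 92.3% and 100% at P14 and 100% in both P21 libraries, and no Brg1-deficient P12 peak lay there. H3K27Ac covered 98.5% in wild-type P12 and 45.8% and 59.5% in Brg1-deficient retinae. It was the 1 domain among the 607 with at least 50% H3K4me3 coverage in wild-type P12 and no Brg1-deficient peak. Of all 13653 replicated P14 peaks, 76 met this condition, so it was not particular to the domains. The domain was singled out after its values were seen.

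The 5 domains with the highest ratio, from 1.19 to 1.25, were chr12:103939704-103944039, chr11:69413254-69419494, chr10:36855771-36861383, chr10:80136842-80141520 and chr5:104181456-104187903. All 5 had H3K27Ac in both P0 replicates and Brg1 at P0. At chr10:36855771-36861383, which was less covered at P21 than at P0 in wild-type retinae, H3K27Ac covered 95.6% and 96.3% in Brg1-deficient and 79.4% in wild-type P12 retinae. The Brg1-deficient values there lay above the P0 values of 89.2% and 90.3%, and the wild-type value lay below them. The domain was named for its high ratio, so nothing is read from this order.

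H3K4me3 at P12 was present at 533 domains in wild-type and 489 in Brg1-deficient retinae, with median coverages of 56.9% and 47.7%. The wild-type P14 libraries, with 485 and 502 domains and 48.4% and 52.9%, bracketed the Brg1-deficient count. A peak in wild-type P12 without one in Brg1-deficient P12 was found at 48 domains (7.91%, against 3.62% of all peaks), and the reverse at 4 (0.659%, against 0.527%). The same comparison of wild-type P12 with P14 replicates 2 and 3 gave 49 and 37 domains (against 3.43% and 2.95%), and the reverse gave 1 and 6 (against 0.256% and 0.747%). Between the P14 libraries, 7 domains had a peak in replicate 2 alone and 24 in replicate 3 alone (against 0.762% and 1.73%). At 9 domains the wild-type P12 and both P14 libraries had a peak and the Brg1-deficient library had none (1.48%, against 0.769%), and at 2 domains the Brg1-deficient library alone had one (0.329%, against 0.278%). H3K27me3 islands lay in 35 and 37 domains in wild-type and 30 in Brg1-deficient P12 retinae.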

How the data were processed

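The authors deposited a peak list for each library. The deposited fold enrichment is a ratio of signal at the summit to local background, made by the authors' peak caller for each library without pooling replicates. The 18 H3K27Ac, H3K4me3 and Brg1 lists give each peak's position, summit, fold enrichment over background (a ratio, called height here), −log10 p-value and −log10 q-value. The 9 H3K27me3 lists give islands, with a deposited score of unstated meaning that was not used. The submitters' processing notes name the mm9 build, BWA 0.5.9-r26, MACS2 2.0.9 and SICER 1.1. The weakest peak of each narrow list had a deposited −log10 q-value of 1.31 to 1.51. Heights are not scaled between libraries by the authors, and 8 input libraries were not analysed here.

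Domains were compared with each list by overlap of at least 1 bp, and the overlap code was checked against bedtools 2.31.1, with 0 differences in 16389 pairs of domain and library. Peaks of the 6 wild-type libraries of a mark at P0, P14 and P21 were merged, and the highest height (or the covered length) per region was scaled to equal medians over regions with a peak in every library. limma 3.58.1 (lmFit and eBayes, R 4.3.3, two-sided) was fitted to log2 of the value plus a pseudocount, the 5th percentile of values above 0 (2.19 and 174.51 bp for H3K27Ac, 3.41 for H3K4me3), and checked on simulated data. All 6 libraries entered each fit, without a replicate term. Fits over regions with a peak in at least 2 libraries and in every library were both planned, and the second leads the report because the first admits regions through the higher stage alone.

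Domains were named by rule: the 10 widest, 3 on each side of the limit, up to 10 without P0 H3K27Ac, up to 8 with P0 H3K27me3, 5 at each end of the P12 ratio and up to 5 per direction of each limma result. Domains, lists and rules were chosen with earlier results of these data known. Replicate numbers come from the titles, which for H3K4me3 at P14 are 2 and 3. Replicate numbers were not used to pair the libraries.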

Additional observations from a re-analysis of the deposited data

How the results depend on the processing

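The counts of the domains themselves followed the limits set. A width of at least 3000 bp gave 1279 domains, 5000 bp gave 316, and joining replicate 2 peaks within 500 bp gave 1593. Requiring at least 50% of the domain to be covered left 48 acetylated at P0. At P21, joining peaks within 500 bp gave 390 domains of at least 4000 bp in both replicates, the covered length gave 325, and leaving out a replicate gave 258 to 332. At P12, joining gave 571 for wild type, 504 for both Brg1-deficient replicates and 496 for all 3 libraries, against 310, 200 and 168, and leaving out a Brg1-deficient replicate gave 232 to 344. Among limma results, no scaling gave 0 calls for H3K27Ac height and for H3K4me3 at P14 and P21. Regions with a peak in every library gave 65, 41 and 47. A pseudocount of 1 gave 170 for H3K27Ac covered length. Leaving out a library gave 0 to 149 for H3K27Ac height, 0 to 257 for covered length, 0 to 66 for H3K4me3 at P14 and 137 to 168 for H3K4me3 at P21. Fewer samples lower the power of those fits, and otherwise the cause was not tested. The other 36 alternatives of these results stayed within 1.5 times. For the named regions, 112 tests under an alternative kept their side of the threshold, 80 no longer passed and none reversed in direction.

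Differences between replicates 1 and 2 correlated at 0.08 between P0 and P14, 0.02 between P0 and P21 and 0.45 between P14 and P21 for H3K27Ac. For H3K4me3 the value was 0.06 between P0 and P21. The numbers were therefore not taken to pair libraries in comparisons with P0. For H3K27Ac the P14 and P21 differences were partly shared, and replicate 1 had the smaller list at both stages. With a replicate block the domain regions called were 205 for H3K27Ac height, 286 for covered length and 241 for H3K4me3 at P21. For the P14 H3K4me3 comparison: No paired analysis was possible because the stages had only replicate number 2 in common. Reads per library are unknown, so how far depth set the width and number of peaks was not tested.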
